A study of Mus musculus with 7 samples.

Results

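Neurotrophins and their receptors are represented here by 7 protein-coding genes, namely the ligands Bdnf and Ntf3, the Trk receptors Ntrk2 and Ntrk3, the p75 receptor Ngfr, the sorting receptor Sort1 and the secreted peptide precursor Vgf. They were chosen by gene name from the 55416 genes of the count table, of which 21885 are protein-coding, and all 7 were among the 17254 genes with enough counts for testing. The study asked what a human long noncoding RNA, PAXIP1-AS1, does in mouse brain when it carries either of 2 alleles. Wild-type female mice of the C57BL/6 strain received a stereotaxic injection of recombinant adeno-associated virus (AAV) into the prefrontal cortex (PFC), and polyadenylated RNA of that tissue was sequenced in 7 libraries. The 3 Ctr libraries came from mice given the empty vector, the 2 Ref libraries from mice given PAXIP1-AS1 with the reference C allele, and the 2 Alt libraries from mice given the alternative G allele. All vectors carried EGFP under the human synapsin promoter, which is active in neurons, and the Ref and Alt transcripts were placed under the same promoter, so other cells of the tissue contributed RNA without being targeted by the vector's promoter. The age of the mice and the number of mice behind each library are not given in the sources used here, so p-values measure the spread between these libraries, which may be technical.

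Neurotrophins are secreted as precursors that proteases cut into the mature growth factor. Mature BDNF binds TrkB, the product of Ntrk2, and NT-3, the product of Ntf3, binds TrkC, the product of Ntrk3, and both receptors signal through adaptor proteins to the ERK, PI3K and phospholipase C gamma pathways. Precursor forms bind p75, the product of Ngfr, together with sortilin, the product of Sort1. In cortex, BDNF is made mainly by excitatory neurons in step with their activity, while a truncated form of TrkB that lacks the kinase is abundant in astrocytes.

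Sequencing depth ranged from 16655697 to 20750857 counts, and both Alt libraries were shallower than the other 5. Levels are given as CPM, which are counts scaled to library size with edgeR's TMM factors (0.924 to 1.05). The 2 Alt libraries differed more from each other than the libraries of Ctr or Ref did. The chi-square per degree of freedom between them was 58.0, against 18.6 to 25.0 between the libraries within Ctr or Ref. This value cannot tell which of the 2 is the unusual one. Results for the members in Alt, and those for the lists that change, are also given without Alt replicate 1, which had the lowest depth, 16655697 counts. Alt then holds 1 library, which is assumed to vary like the libraries of Ctr and Ref, from which the whole spread is taken, so a difference that passes or fails in this way is no test of an effect repeated in Alt. Markers of cortical cells were present, and 0 of the marker genes were at 0 in all libraries. The summed CPM of excitatory neuron markers ran from 4460 to 5006 in Ctr, from 5140 to 5205 in Ref and from 5704 to 5858 in Alt, while that of inhibitory neuron markers ran from 253 to 318, from 241 to 245 and from 216 to 233. Camk2a made up most of the excitatory sum, with means of 3109 CPM in Ctr, 3591 in Ref and 3885 in Alt, while Neurod6 stood at 107, 74.3 and 67.9 CPM. Of the 5 excitatory markers, 2 were higher and 1 lower past an unadjusted p of 0.05 between Alt and Ctr, and 0 were higher and 2 lower between Ref and Ctr, so the sum does not speak for each marker. The shares of all genes were 9.45% higher and 10.3% lower between Alt and Ctr, and 2.19% and 0.945% between Ref and Ctr. Long genes were more often higher in Alt than genes at large. Among the 3084 genes tested of at least 7569 bases, 31.3% passed an unadjusted p of 0.05 in the higher direction between Alt and Ctr, against 9.45% of all genes, and their median log2 difference was 0.28 before and 0.00063 after a correction for gene length. In bulk tissue, fewer cells of a type and less RNA per cell cannot be told apart.

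On the TPM scale, which divides by gene length, the members of control cortex fell into 3 tiers. Vgf stood at 235 ± 59.7 TPM (SD, n = 3), Sort1 at 224 ± 11.7 and Ntrk2 at 140 ± 17.5. Bdnf stood at 24.4 ± 4.12 TPM and Ntrk3 at 20.6 ± 4.10, and Ntf3 at 2.45 ± 0.961 TPM and Ngfr at 0.868 ± 0.417 came last. Vgf and Sort1 did not differ beyond their spread, and neither did Bdnf and Ntrk3, whose Ctr libraries overlapped, while Sort1 and Ntrk2 did not overlap. In the 4 Ref and Alt libraries Ntrk3 was above Bdnf. Ntf3 was above Ngfr in all 5 Ctr and Ref libraries. Among protein-coding genes of control cortex the members sat at the percentiles 98.2 for Vgf, 98.0 for Sort1, 96.3 for Ntrk2, 76.8 for Bdnf, 73.9 for Ntrk3, 45.3 for Ntf3 and 38.7 for Ngfr. In the plot of TPM by gene and library, the top tier is separated from the middle one by more than the spread in every group.

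**Figure D1:**
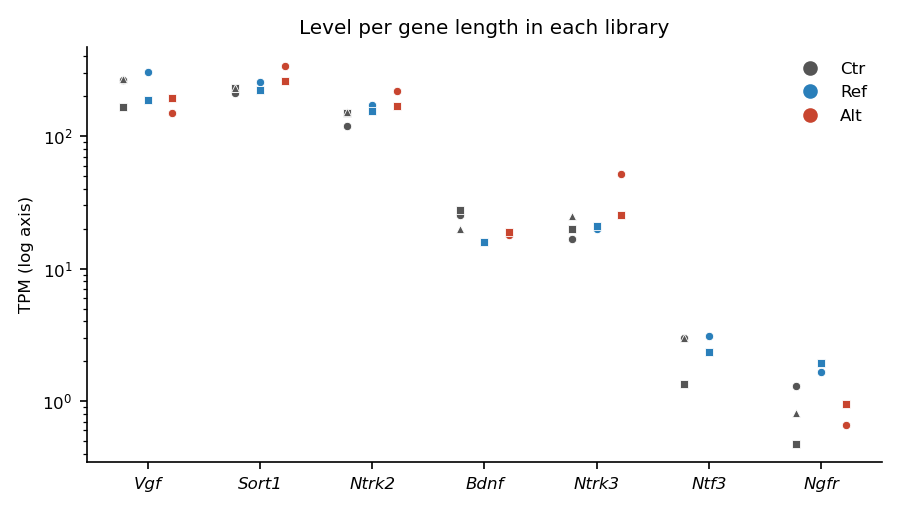
Levels of the 7 members in TPM on a log axis, with 1 point per library in Ctr (3 libraries), Ref (2) and Alt (2). Ntf3 in Alt is at 0 TPM in both libraries and cannot be drawn on a log axis, while Vgf, Sort1 and Ntrk2 are highest in all 3 groups.

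Upstream sequences are shown for the 2 ligands because Bdnf was lower in both Ref libraries than in every Ctr library and Ntf3 had no read in Alt, and because Bdnf is transcribed from several start sites. Among the RefSeq start sites for GRCm38.p6 used here, 4 of the 7 members had a match, with 7 for Bdnf, 2 for Ntf3 and 1 each for Ntrk2 and Ngfr. That Ntrk3, Sort1 and Vgf had none is a limit of the set used. Each window holds the 250 bases before a start, printed on the gene's strand. The window positions are in GRCm38 and cannot be set against the gene positions given below in the count table's coordinates. Of 52083 genes matched to a GRCm38 annotation, 2.87% had the same start and end in the count table. Windows were searched on both strands for the cAMP response element (CRE) TGACGTCA, its variant TGACGTGA, its core TGACG, which lies inside both, and the E-box CACGTG. Over 32851 windows of this length, 1.55% hold the full CRE, 0.350% the variant, 17.8% the core and 6.02% the E-box. Capitals mark a match. In the third Bdnf window the match is the CRE variant read on the opposite strand, starting 38 bases before the start site, and the overlapping core starts 35 bases before it. The other 6 Bdnf windows hold none of the 4 motifs. The first Ntf3 window holds an E-box that starts 231 bases before the start site, and the second holds none of the motifs.
Bdnf, start site 3, chr2:109692186-109692435, plus strand: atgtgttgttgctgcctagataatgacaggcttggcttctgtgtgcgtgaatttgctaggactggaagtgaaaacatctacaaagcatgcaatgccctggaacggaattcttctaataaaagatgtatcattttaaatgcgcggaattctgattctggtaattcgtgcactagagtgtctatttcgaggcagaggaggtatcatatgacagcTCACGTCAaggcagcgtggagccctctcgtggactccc
Ntf3, start site 1, chr6:126166745-126166994, minus strand: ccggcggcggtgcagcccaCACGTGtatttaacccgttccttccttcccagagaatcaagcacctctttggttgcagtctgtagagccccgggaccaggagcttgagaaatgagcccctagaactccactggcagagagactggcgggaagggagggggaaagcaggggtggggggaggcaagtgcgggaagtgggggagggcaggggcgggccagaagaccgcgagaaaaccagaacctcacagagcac
Ntf3, start site 2, chr6:126164961-126165210, minus strand: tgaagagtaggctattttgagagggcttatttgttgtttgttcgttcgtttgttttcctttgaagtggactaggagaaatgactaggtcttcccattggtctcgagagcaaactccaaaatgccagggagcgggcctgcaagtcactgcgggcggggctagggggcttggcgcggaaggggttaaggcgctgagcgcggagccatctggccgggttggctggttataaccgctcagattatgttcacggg

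A match describes letters in the window, not a bound site. The counts sum all transcripts of a gene, so which Bdnf start site the reads came from was not analysed here.

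Of the 7 members, 4 passed an unadjusted p of 0.05 between Alt and Ctr by edgeR's quasi-likelihood test, with Ntrk2, Ntrk3 and Sort1 higher in Alt and Ntf3 lower. Ntf3 had 0 reads in Alt and was tested only because of its level in Ctr and Ref, so its pass, here and against Ref, is not one of an ordinary gene, and without it 3 members passed against Ctr. Over all genes tested, 19.8% passed this threshold in that comparison, 9.45% higher and 10.3% lower. Between Alt and Ref 2 members passed, Ntrk3 higher and Ntf3 lower, where 15.5% of all genes did, 6.71% higher and 8.83% lower. Between Ref and Ctr, 1 member passed, with Bdnf lower in Ref, where 3.14% of all genes did, 2.19% higher and 0.945% lower. Counts under other settings are to be read against their own shares. After the length correction 7.3% of all genes were higher and 9.06% lower between Alt and Ctr, and 7.42% higher and 5.6% lower between Alt and Ref. The shares without Alt replicate 1 were 3.68% and 4.46% against Ctr, and 2.35% and 4.4% against Ref. No member passed an adjusted p of 0.05 in any of the 3 comparisons by this test with Benjamini-Hochberg adjustment, and of all 17254 genes 0, 1 (0.0058%) and 0 did between Alt and Ctr, Alt and Ref, and Ref and Ctr. At an unadjusted p of 0.05 the counts over all genes were 3414, 2680 and 541, and DESeq2 called 1123, 449 and 6 genes at an adjusted p of 0.05. Differences are log2 values ± SE from edgeR's fit over all 7 libraries, each with its adjusted p by Benjamini-Hochberg, and a member or list gene is said to pass or not to pass by the unadjusted p of 0.05. The plot of CPM by library and the plot of log2 differences show these values for every member.

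**Figure D2:**
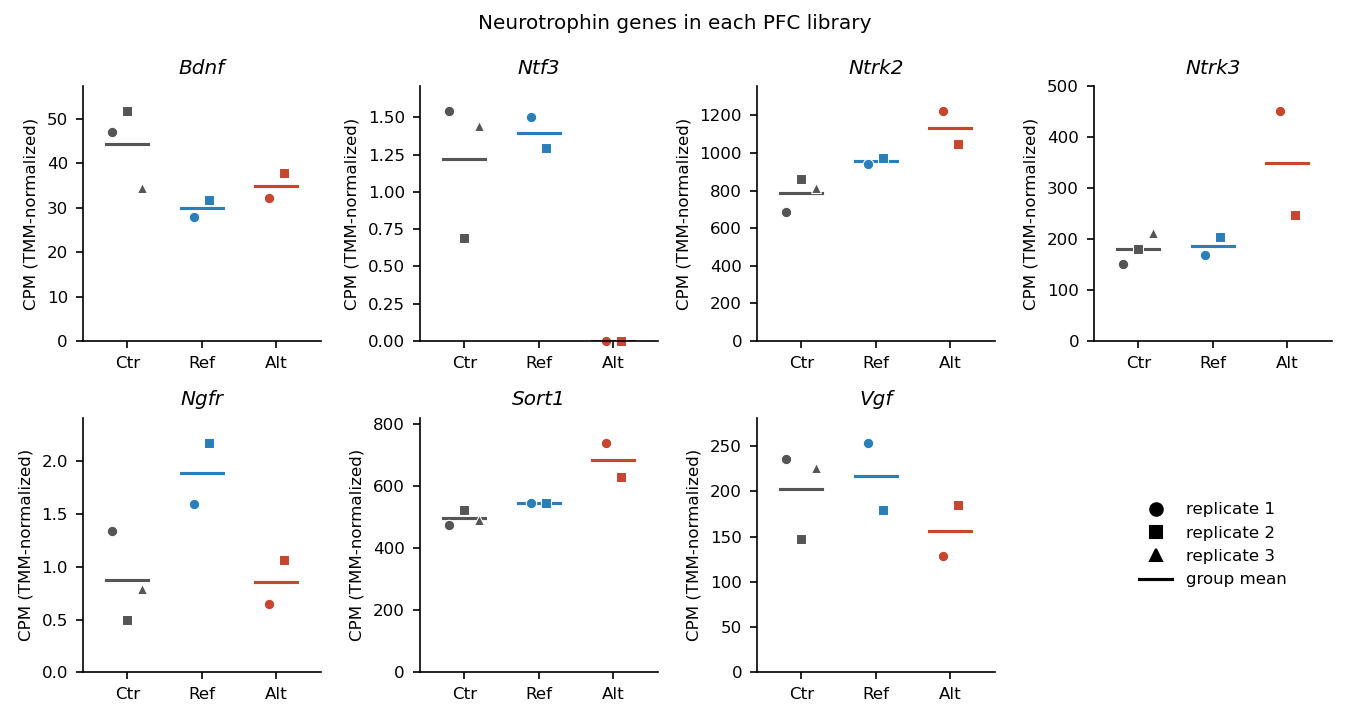
Levels of each member in CPM, 1 panel per gene with its own linear axis from 0, 1 point per library and a bar at the mean of Ctr, Ref or Alt. Both Ntf3 points of Alt lie at 0, and Alt replicate 1 is the highest of the 7 libraries for Ntrk2, Ntrk3 and Sort1.

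Bdnf encodes brain-derived neurotrophic factor, the ligand of TrkB. The gene (ENSMUSG00000048482.15) lies on chromosome 2 from 109505045 to 109557352 on the plus strand, in the coordinates of the count table, whose build is not named, and has 6217 bases of exon. Its level was 47.1, 51.7 and 34.5 CPM in Ctr, 27.9 and 31.9 CPM in Ref, and 32.3 and 37.8 CPM in Alt. Both Ref libraries lay under every Ctr library, while Alt replicate 2 lay above the lowest Ctr library. The mean was 44.4 ± 8.91 CPM in Ctr (SD, n = 3), 29.9 ± 2.79 in Ref (n = 2) and 35.0 ± 3.89 in Alt (n = 2). In edgeR's quasi-likelihood test the difference between Ref and Ctr was -0.57 ± 0.206 (SE, adjusted p = 1). Bdnf was the only member that passed there, and of all genes 22.9% did not overlap between Ref and Ctr, 12.4% higher in Ref and 10.5% lower. Bdnf no longer passed without Ctr replicate 2, at -0.45, or without Ref replicate 1, at -0.47. Between Alt and Ctr the difference was -0.34 ± 0.205 (adjusted p = 0.373 by edgeR), and between Alt and Ref it was 0.23 ± 0.223 (adjusted p = 0.667), and neither passed. When Alt replicate 1 was left out they were -0.23 and 0.35. Over the alternatives tried, the Bdnf difference between Alt and Ctr ran from -0.59 to -0.22 and passed in 3 of 16, which were those without Ctr replicate 3, with the replicate block, and with the block and the length correction together.

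Ntf3 encodes neurotrophin-3, the preferred ligand of TrkC. The gene (ENSMUSG00000049107.14) lies on chromosome 6 from 126078375 to 126143873 on the minus strand in the table's coordinates, with 1714 bases of exon. It had 31, 14 and 31 reads in Ctr, 31 and 25 reads in Ref, and 0 reads in both Alt libraries. At the mean level of Ctr, Alt replicate 1 would have held 18.8 reads and Alt replicate 2 would have held 21.9 reads. The mean was 1.22 ± 0.465 CPM in Ctr (SD, n = 3), 1.40 ± 0.146 in Ref (n = 2) and 0 in Alt, and Alt overlapped neither other group. With a floor of 3 counts put in place of 0 in each Alt library, the mean of Ctr was 6.75-fold and that of Ref 7.70-fold above Alt. These ratios take the means of Ctr and Ref as fixed and allow for no spread between libraries. Ctr replicate 2 stood at 0.689 CPM, under the Ctr mean. Ntf3 passed in both comparisons (edgeR, adjusted p = 0.120 against Ctr and 0.229 against Ref). Over the alternatives tried, which share the counts of 0 in Alt, the adjusted p against Ctr ran from 0.00434 to 0.450. Ntf3 passed the filter on low counts through Ctr and Ref alone, so a difference was part of its being tested. With the lowest Ntf3 count outside Alt, 14 reads, taken as the minimum in each of the other 5 libraries, genes at 0 in both Alt libraries numbered 3 in the whole table, Ntf3 with Ltc4s and 0610040B10Rik, where the latter was named after its values were seen, and 0 genes were at 0 in both Ref libraries in this way. Alt replicate 1 alone was at 0 for 97 genes with at least 14 reads in every other library, and Ctr replicate 2 for 32, against 0 to 5 in the other libraries. Between Ref and Ctr the fitted Ntf3 difference was 0.19 ± 0.902 (adjusted p = 1 by edgeR).

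Vgf encodes a precursor of secreted neuropeptides that neurotrophins induce. The gene (ENSMUSG00000037428.15) lies on chromosome 5 from 137055246 to 137062205 on the plus strand in the table's coordinates, with 2973 bases of exon. Its level was 236, 147 and 226 CPM in Ctr, 254 and 180 CPM in Ref, and 128 and 185 CPM in Alt. Alt replicate 1 was the lowest of the 7 libraries, and all 3 groups overlapped. The mean was 203 ± 48.5 CPM in Ctr, 217 ± 52.1 in Ref and 157 ± 40.5 in Alt. By edgeR the difference between Alt and Ctr was -0.37 ± 0.238 (adjusted p = 0.407), that between Alt and Ref was -0.47 ± 0.259 (adjusted p = 0.405), and that between Ref and Ctr was 0.09 ± 0.235 (adjusted p = 1), and none of them passed. Over the alternatives tried, the Vgf difference from Ctr ran from -0.67 (without Alt replicate 2) to -0.08 and passed in 3 of 16 alternatives, and that from Ref ran from -0.75 (without Alt replicate 2) to -0.18 and passed in 3 of 16. Without Alt replicate 1 they were -0.13 and -0.21.

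Ntrk2 encodes TrkB. The gene (ENSMUSG00000055254.16) lies on chromosome 13 from 58954383 to 59281784 on the plus strand in the table's coordinates, and its exons cover 19292 bases. Its level was 688, 859 and 816 CPM in Ctr, 939 and 972 CPM in Ref, and 1221 and 1049 CPM in Alt. The 3 groups did not overlap, with Ctr lowest and Alt highest, and the means were 788 ± 89.2, 956 ± 23.3 and 1135 ± 122 CPM. Between Alt and Ctr the difference was 0.53 ± 0.151 by edgeR (adjusted p = 0.125), and 35% of all genes did not overlap between these groups, 16.8% higher in Alt and 18.1% lower. After the correction for gene length it was 0.01 (adjusted p = 0.981) and did not pass, while without Alt replicate 1 it was 0.42. Between Alt and Ref the Ntrk2 difference was 0.25 ± 0.167 (adjusted p = 0.502), which turned to -0.19 with the length correction and was 0.15 without Alt replicate 1, and between Ref and Ctr it was 0.28 ± 0.152 (adjusted p = 1), and neither passed. By DESeq2 the adjusted p between Alt and Ctr was 0.0121. The summed CPM of 5 astrocyte markers was 4032, 5570 and 5033 in Ctr, 5598 and 7171 in Ref, and 10178 and 6674 in Alt. This sum, like Ntrk2, was lowest in the Ctr libraries, while Ref and Alt overlapped, and the glutamate transporter gene Slc1a2 made up most of it, at 4262 ± 696 CPM in Ctr, 5682 ± 1114 in Ref and 7746 ± 2520 in Alt. The means in Ctr, Ref and Alt were 191, 189 and 245 CPM for Aqp4, 221, 289 and 240 CPM for Gja1, 44.4, 58.2 and 47.5 CPM for Aldh1l1, and 160, 167 and 147 CPM for Gfap, so the order of the sum was that of Slc1a2 and not of these 4. Of the 5 markers, 1, Slc1a2, was past an unadjusted p of 0.05 between Alt and Ctr, 0 between Alt and Ref, and 2, Gja1 and Aldh1l1, higher between Ref and Ctr, and their part in the result was not tested. Reads of the full-length and the truncated TrkB transcripts are summed in the counts.

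Ntrk3 encodes TrkC. The gene (ENSMUSG00000059146.13) lies on chromosome 7 from 77825707 to 78387760 on the minus strand in the table's coordinates, and its 30170 bases of exon are the most of any member. Its level was 151, 181 and 211 CPM in Ctr, 169 and 204 CPM in Ref, and 451 and 247 CPM in Alt. Ctr and Ref overlapped, both Alt libraries lay above them, and Alt replicate 1 was far above Alt replicate 2. The means were 181 ± 29.9, 186 ± 24.5 and 349 ± 144 CPM. By edgeR the difference was 0.94 ± 0.231 between Alt and Ctr (adjusted p = 0.120) and 0.90 ± 0.259 between Alt and Ref (adjusted p = 0.236), and both passed. Of all genes, 47.7% did not overlap between Alt and Ref, 21.6% higher in Alt and 26.1% lower. Without Alt replicate 1, and so with 1 library in Alt, the difference was 0.45 from Ctr and 0.42 from Ref, and the call against Ref was lost. Corrected for length, the differences were 0.21 from Ctr (edgeR, adjusted p = 0.422) and 0.27 from Ref (adjusted p = 0.438), and neither passed. DESeq2 gave an adjusted p of 0.00445 against Ctr and 0.0199 against Ref. The difference between Ref and Ctr was 0.04 ± 0.234 (adjusted p = 1 by edgeR).

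Ngfr encodes p75, the shared low-affinity neurotrophin receptor. The gene (ENSMUSG00000000120.7) lies on chromosome 11 from 95459644 to 95478561 on the minus strand in the table's coordinates, with 3446 bases of exon. It had 27, 10 and 17 reads in Ctr, 33 and 42 reads in Ref, and 10 and 19 reads in Alt, or 1.34, 0.492 and 0.790 CPM, 1.60 and 2.17 CPM, and 0.650 and 1.06 CPM. Both Ref libraries were above all others, while Ctr and Alt overlapped. Ref lay wholly above Ctr for 12.4% of all genes, and Alt wholly under Ref for 26.1%. The mean was 1.88 ± 0.407 CPM in Ref, against 0.874 ± 0.430 in Ctr and 0.855 ± 0.289 in Alt. At this depth the difference between Ref and Ctr of 1.10 ± 0.802 did not pass (edgeR, adjusted p = 1), nor did that of -1.13 ± 0.906 between Alt and Ref (adjusted p = 0.586). The difference between Alt and Ctr was -0.03 ± 0.833 (edgeR, adjusted p = 0.991) and changed sign with the length correction. When Alt replicate 1 was left out Ngfr differed by 0.28 from Ctr and by -0.81 from Ref. Oligodendrocyte markers were also highest in Ref, and their summed CPM ran from 4087 to 5086 in Ref, from 2418 to 3421 in Ctr and from 2368 to 2899 in Alt, with 7 of 9 higher in Ref than in Ctr and 7 of 9 lower in Alt than in Ref past an unadjusted p of 0.05. Basal forebrain cholinergic markers, from cells known for p75, summed to 1.53 to 2.33 CPM in Ctr, 0.967 to 1.09 in Ref and 1.24 to 1.39 in Alt, and meningeal and perivascular fibroblast markers to 64.0 to 74.2, 57.4 to 66.8 and 94.0 to 105 CPM. The part of these cells in the Ngfr values was not tested.

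Sort1 encodes sortilin, which sorts proneurotrophins and forms a receptor with p75. The gene (ENSMUSG00000068747.15) lies on chromosome 3 from 108191398 to 108268827 on the plus strand in the table's coordinates, with 7569 bases of exon. Its level was 475, 522 and 490 CPM in Ctr, 546 and 544 CPM in Ref, and 739 and 630 CPM in Alt. The groups did not overlap, and the means were 496 ± 23.9, 545 ± 0.724 and 684 ± 77.1 CPM. The difference between Alt and Ctr was 0.46 ± 0.141 by edgeR (adjusted p = 0.131) and passed. It was 0.32 after the length correction (adjusted p = 0.206) and 0.35 without Alt replicate 1. Of the 3 members higher in Alt, Sort1 was the one that passed after the length correction. It did not pass with the length correction and the replicate block together, at 0.29, and passed in the other 15 of 16 alternatives. Between Alt and Ref the difference was 0.33 ± 0.156 (edgeR, adjusted p = 0.337), and between Ref and Ctr it was 0.14 ± 0.142 (adjusted p = 1), and neither passed. The difference from Ref was 0.22 without Alt replicate 1. DESeq2 gave an adjusted p of 0.0160 between Alt and Ctr and of 0.124 between Alt and Ref.

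**Figure D3:**
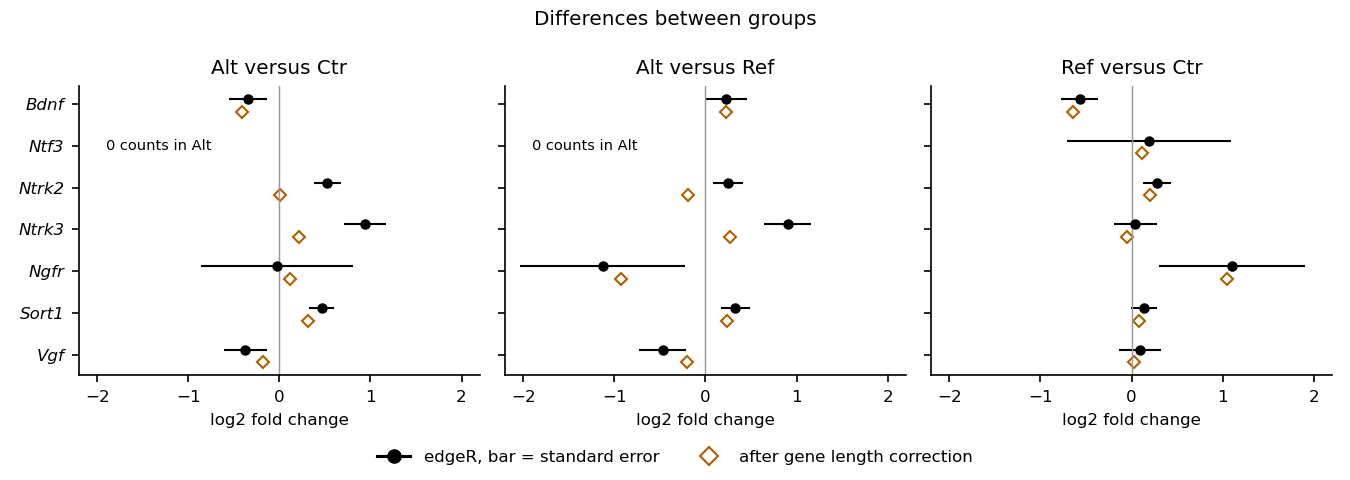
Log2 differences of the members between Alt and Ctr, Alt and Ref, and Ref and Ctr by edgeR as filled points with bars of 1 SE, and after the gene length correction as open diamonds. Ntf3 is not drawn for Alt, where it had 0 counts, while the filled points of Ntrk3 lie furthest above 0 in both comparisons with Alt, and Bdnf lies below 0 between Ref and Ctr.

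Along the order Ctr, Ref, Alt, scored 0, 1 and 2, the members past an unadjusted p of 0.05 numbered 3, where 16.7% of all genes did, 8.85% higher and 7.89% lower. Per step, Ntrk3 was higher by 0.45 on the log2 scale (edgeR, adjusted p = 0.166), Ntrk2 by 0.26 (adjusted p = 0.168) and Sort1 by 0.23 (adjusted p = 0.185). The Bdnf slope was -0.19 (edgeR, adjusted p = 0.400) and the Vgf slope was -0.17 (adjusted p = 0.524), and neither passed. The Ntf3 slope, fitted with Alt at 0 and so no measure of size, did not pass (edgeR, adjusted p = 0.335) but passed in 5 of 15 alternatives. Ngfr, with its highest values in the middle group, had a slope of 0.09 (edgeR, adjusted p = 0.951). After the length correction Sort1 was the one that still passed, at 0.15 per step, and with the length correction and the replicate block together it did not pass. Without Alt replicate 1 the slope was 0.19 for Ntrk3, which no longer passed, 0.22 for Ntrk2 and 0.16 for Sort1. The score uses the same libraries as the comparisons by pairs and adds no independent sample.

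Ratios of read counts within a library set ligand against receptor without any scaling between libraries, and are not corrected for gene length. These pairs were chosen after the values were seen and are a description. Bdnf had 6.84, 6.01 and 4.23 reads per 100 reads of its receptor gene Ntrk2 in Ctr, 2.97 and 3.28 in Ref, and 2.64 and 3.60 in Alt, so all 4 libraries with PAXIP1-AS1 lay under all 3 without it. How often other pairs of genes separate in this way was not counted. This ratio carries the difference in length between the genes, and between Alt and Ctr the log2 difference was -0.34 for Bdnf and 0.53 for Ntrk2 before the length correction, but -0.42 and 0.01 after it. Ntrk2 had 4.54, 4.75 and 3.86 reads per read of Ntrk3 in Ctr, 5.56 and 4.77 in Ref, and 2.71 and 4.25 in Alt, where Alt replicate 1 was the lowest. Ntrk2 and Sort1, which were both highest in Alt, kept a ratio of 1.45 to 1.66 in Ctr, 1.72 to 1.79 in Ref and 1.65 to 1.67 in Alt. Vgf per read of Bdnf ranged from 2.85 to 9.08, where Ctr overlapped both other groups and both Ref libraries lay above both Alt libraries. The plot of ratios within libraries shows all of them but that to Sort1.

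**Figure D4:**
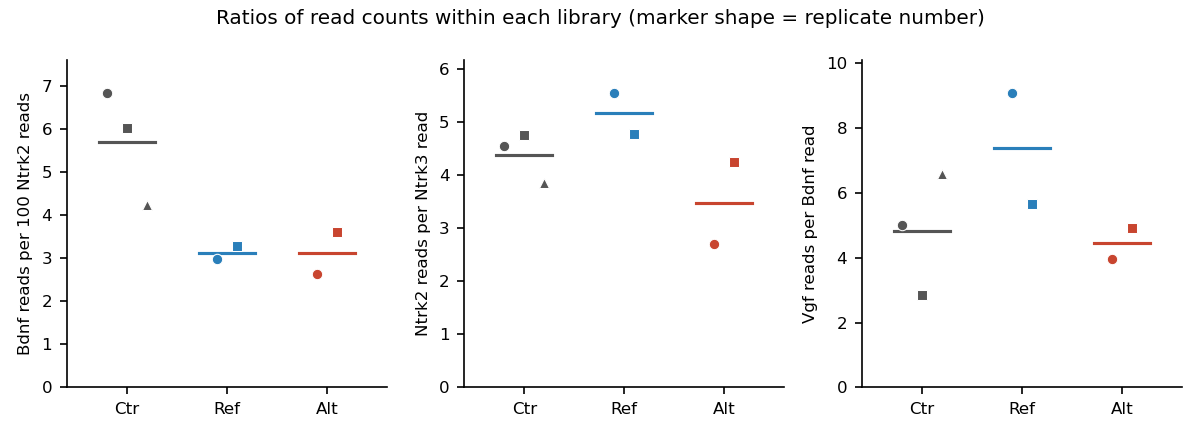
Bdnf reads per 100 Ntrk2 reads, Ntrk2 reads per Ntrk3 read and Vgf reads per Bdnf read, 1 panel each with a linear axis from 0, 1 point per library in Ctr, Ref and Alt and a bar at the group mean. Bdnf per 100 Ntrk2 reads is at 4.23 or above in Ctr and at 3.60 or below in Ref and Alt.

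The genes whose pattern over the 7 libraries was most like that of a ligand were ranked by the root mean square difference of centred log2 CPM among 14491 other protein-coding genes. For Bdnf these were Dhx40 at 0.0584, Scoc at 0.0615 and Gmnn at 0.0984, where the median gene was at 0.433. For Ntf3 they were Cd164l2 at 0.161, Ltc4s at 0.343 and Dhrs11 at 0.424, against a median of 1.71, and Cd164l2 and Ltc4s were also at 0 in both Alt libraries, Cd164l2 with fewer than 14 reads in another library. For Vgf they were Dmac2 at 0.0480, Ubtf at 0.0489 and Wbp2 at 0.0602, against a median of 0.446. These distances describe likeness over the libraries only.

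Of the 7 other neurotrophin ligands and receptors, 5 were tested. At an unadjusted p of 0.05, 2 sorting receptor genes were higher and 1 gene lower between Alt and Ctr, and 1 higher and 1 lower between Alt and Ref. The shares of all genes were 9.45% and 10.3% against Ctr, and 6.71% and 8.83% against Ref. The lower gene is not reported here. Ntf5, which encodes neurotrophin-4, had 0, 0 and 6 reads in Ctr, 2 and 0 in Ref, and 0 and 3 in Alt, and could not be tested at this depth. Sorl1, a sorting receptor gene of the sortilin family, was higher in Alt by 0.67 ± 0.174 than in Ctr (edgeR, adjusted p = 0.120) and by 0.63 ± 0.193 than in Ref (adjusted p = 0.236). Its level was 717 CPM in Alt replicate 1 and 529 in Alt replicate 2, against means of 390 in Ctr and 402 in Ref. Sorcs2, of the same receptor family, was higher by 0.58 ± 0.212 than in Ctr (edgeR, adjusted p = 0.170). Corrected for length, both differences from Ctr were 0.36, and Sorl1 passed while Sorcs2 did not. Without Alt replicate 1 the Sorcs2 difference from Ctr was 0.22 and did not pass, and that of Sorl1 was 0.44.

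Of the 10 genes of proneurotrophin processing, 0 were higher and 1 lower between Alt and Ctr, and 0 higher and 2 lower between Alt and Ref, at an unadjusted p of 0.05. The shares of all genes were 9.45% and 10.3% against Ctr, and 6.71% and 8.83% against Ref. Pcsk7, a proprotein convertase, was lower in Alt than in Ctr with a log2 difference of -0.70 ± 0.256 (adjusted p = 0.171 by edgeR). Plat, which encodes tissue plasminogen activator, was lower in Alt than in Ref at -0.97 ± 0.275 (edgeR, adjusted p = 0.233), and Cpe, carboxypeptidase E, at -0.51 ± 0.210 (adjusted p = 0.291). Pcsk7 and Cpe did not pass without Alt replicate 1. The other 7 genes, including Furin, passed in neither comparison with Alt.

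Of 20 adaptors and effectors of Trk receptors, 8 were higher and 1 lower between Alt and Ctr, with a median log2 difference of 0.33. In that comparison 9.45% of all genes were higher and 10.3% lower. Shc3, a neuronal SHC adaptor, stood at 46.6 ± 23.2 CPM in Ctr, 74.8 ± 11.7 in Ref and 115 ± 54.8 in Alt, a difference from Ctr of 1.30 ± 0.358 (edgeR, adjusted p = 0.123) that was 0.71 and did not pass without Alt replicate 1. Frs2, a docking protein of Trk receptors, was higher by 0.60 ± 0.160 (edgeR, adjusted p = 0.121) and the docking protein gene Gab2 by 0.62 ± 0.196 (adjusted p = 0.137), where without Alt replicate 1 Gab2 was at 0.40 and did not pass. Grb2, the adaptor that recruits SOS to activate Ras, was lower, at -0.57 ± 0.152 from Ctr (edgeR, adjusted p = 0.121) and -0.58 ± 0.164 from Ref (adjusted p = 0.233). Against Ref, 3 of the 20 were higher in Alt and 1 lower, where 6.71% and 8.83% of all genes were. Corrected for length, the counts between Alt and Ctr were 4 higher and 1 lower, with a median of 0.20, and without Alt replicate 1 they were 2 and 1, with a median of 0.27. Of 9 partners and adaptors of p75, 0 were higher and 1 lower between Alt and Ctr, the p75 interactor gene Bex3 at -0.88 ± 0.386 (adjusted p = 0.236 by edgeR), and 0 passed between Alt and Ref. After the length correction, and also without Alt replicate 1, 0 of the 9 were lower than in Ctr.

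Granins and other secretory granule proteins are stored and released with neuropeptides such as those from Vgf. Of 6 genes, 5 were lower and 0 higher in Alt than in Ctr, with a median log2 difference of -0.50, and 5 were lower and 0 higher than in Ref, with a median of -0.54. The shares of all genes were 10.3% lower and 9.45% higher against Ctr, and 8.83% lower and 6.71% higher against Ref. Scg5, which encodes the chaperone 7B2, stood at 95.0 ± 22.4 CPM in Ctr, 74.1 ± 2.40 in Ref and 42.5 ± 20.2 in Alt, and differed from Ctr by -1.16 ± 0.274 (adjusted p = 0.120 by edgeR). The 2 Alt libraries stood far apart, at 28.2 and 56.8 CPM. Pcsk1n, which encodes the convertase inhibitor proSAAS, differed by -1.36 ± 0.411 from Ref (edgeR, adjusted p = 0.236) and by -1.03 ± 0.381 from Ctr (adjusted p = 0.173). Chromogranin A, from Chga, differed by -0.57 ± 0.224 from Ref (edgeR, adjusted p = 0.273), and chromogranin B, from Chgb, by -0.48 ± 0.214 from Ctr (adjusted p = 0.241). Chga stood at 28.4 and 39.9 CPM in the 2 Alt libraries, against a mean of 50.6 in Ref. After the length correction 2 of the 6 were lower than in Ctr and 1 lower than in Ref, with medians of -0.30 and -0.26, and without Alt replicate 1 there was 1 in each comparison, with medians of -0.29 and -0.33. Pcsk1n was then at -0.50 from Ctr, which did not pass, and at -0.82 from Ref.

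Regulators of Bdnf transcription included 7 genes that were higher and 1 that was lower between Alt and Ctr among 12, where 9.45% and 10.3% of all genes were. Npas4, an activity-induced transcription factor that binds Bdnf promoters, stood at 30.9, 20.6 and 23.7 CPM in Ctr, 8.61 and 8.79 CPM in Ref, and 5.53 and 11.6 CPM in Alt. All 4 libraries with PAXIP1-AS1 lay under all Ctr libraries, with a difference of -1.55 ± 0.317 between Alt and Ctr (adjusted p = 0.120 by edgeR) and of -1.53 ± 0.315 between Ref and Ctr (adjusted p = 0.822), both of which passed. These 2 comparisons share the Ctr libraries. Every library lay under all Ctr libraries for 18.1% of all genes in Alt and for 10.5% in Ref. The share of genes for which both held was not counted. Without Alt replicate 1 the Npas4 difference between Alt and Ctr was -1.11. Camk4, a calcium-dependent kinase of the CREB pathway, was higher in Alt than in Ctr by 1.12 ± 0.254 (edgeR, adjusted p = 0.120). Mef2c, an activity-dependent transcription factor, was higher in Alt than in Ref by 0.68 ± 0.161 (edgeR, adjusted p = 0.229). After the length correction 2 of the 12 were higher and 1 lower between Alt and Ctr, and without Alt replicate 1 there were 4 and 1.

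Of 12 activity-regulated genes, 4 were lower and 1 higher in Alt than in Ctr, with a median log2 difference of -0.30. In that comparison 10.3% of all genes were lower and 9.45% higher. Arc, which encodes a synaptic immediate early protein, stood at 308, 242 and 167 CPM in Ctr, 228 and 227 CPM in Ref, and 69.1 and 117 CPM in Alt. Both Alt libraries lay under all others, with a difference of -1.36 ± 0.268 from Ctr (edgeR, adjusted p = 0.120) and of -1.29 ± 0.284 from Ref (adjusted p = 0.229), and without Alt replicate 1 the first was -1.03. Alt lay wholly under Ctr for 18.1% of all genes and wholly under Ref for 26.1%. Egr4, an immediate early transcription factor, differed by -0.97 ± 0.358 from Ctr (edgeR, adjusted p = 0.172). Inhba, an activin subunit gene, was higher in Alt than in Ref by 1.09 ± 0.347 (edgeR, adjusted p = 0.236), and so was the synaptic scaffold gene Homer1 by 0.46 ± 0.170 (adjusted p = 0.247). Against Ref, 2 were higher in Alt and 1 lower, where 6.71% and 8.83% of all genes were. Between Ref and Ctr 0 were higher and 2 lower, Homer1 at -0.49 ± 0.156 and Egr1 at -0.62 ± 0.240 (adjusted p = 1 for both by edgeR). Egr1, an immediate early transcription factor named after its values were seen, stood at 556, 435 and 395 CPM in Ctr, 303 and 299 CPM in Ref, and 218 and 408 CPM in Alt. After the length correction 2 were higher and 5 lower between Alt and Ctr, with a median of -0.36. Without Alt replicate 1 the counts between Alt and Ctr were 1 higher and 1 lower, with a median of -0.02, and neither Egr4 against Ctr, at -0.48, nor Inhba against Ref, at 0.55, passed. Camk2a stands both among the Bdnf regulators and among the excitatory neuron markers.

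Over the 76 other pathway genes, of which 74 were tested, 18 were higher and 14 lower between Alt and Ctr, with a median log2 difference of 0.06, where 9.45% of all genes were higher and 10.3% lower, and 11 were higher and 10 lower between Alt and Ref, where 6.71% and 8.83% were. After the length correction 9 were higher and 11 lower between Alt and Ctr, with a median of -0.01, where 7.3% and 9.06% of all genes were, and 6 and 3 between Alt and Ref, where 7.42% and 5.6% were. The counts without Alt replicate 1 were 8 and 4 against Ctr, where 3.68% and 4.46% of all genes were, and 6 and 4 against Ref, where 2.35% and 4.4% were. Between Ref and Ctr 0 were higher and 3 lower, Npas4, Homer1 and Egr1, where 2.19% of all genes were higher and 0.945% lower. With the length correction 0 were higher and 7 lower, where 1.9% and 3.27% of all genes were, and without Alt replicate 1, which is in neither group, 3 were higher and 6 lower, where 3.37% and 2.14% were. With the length correction the median log2 difference of all genes between Ref and Ctr was -0.064, against 0.0055 without it. The plot of the pathway lists shows the tested genes of each list that had reads in Alt.

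**Figure D5:**
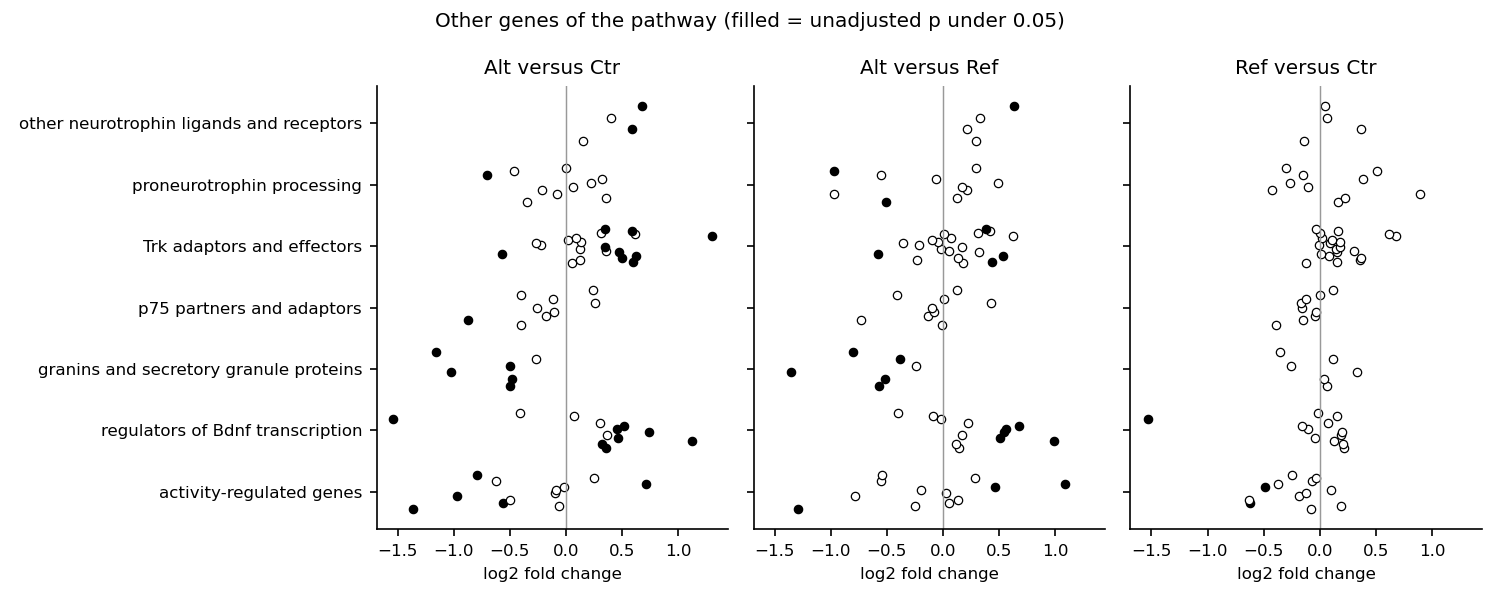
Log2 fold changes of the other pathway genes in 3 panels, Alt versus Ctr, Alt versus Ref and Ref versus Ctr, with 1 point per gene and 1 row per list, filled where the unadjusted p by edgeR is under 0.05. Genes at 0 in Alt and untested genes are left out, and all 6 granin genes lie below 0 in both comparisons with Alt.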

How the data were processed

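The authors deposited 1 table of read counts per gene and library, without normalization, with TPM and FPKM values beside them. TPM and FPKM recomputed from the counts and the table's gene lengths matched the deposited values, and FPKM was not used further. The submitters' processing notes name STAR and featureCounts without versions and only a human build, and the mouse build and annotation are not given in the sources used here. Libraries were assigned to groups and replicate numbers from their titles.

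Counts were fitted in R 4.3.3 with edgeR 4.0.16 (TMM, filterByExpr by group, glmQLFit and glmQLFTest) over all 7 libraries, with Benjamini-Hochberg adjustment over the 17254 genes kept. The SE is the absolute log2 difference divided by the square root of F. Alternatives used DESeq2 1.42.0, other size factors, no low-count filter, protein-coding genes alone, robust dispersion, a replicate block, a loess correction for gene length of span 0.3, only the groups compared, and each library left out in turn. The correction for gene length entered as offsets.  Scripts were tested on simulated counts. A floor of 3 counts per library stood in for 0 in the ratios of means for genes at 0 in a group.

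The members and lists were chosen with earlier results of these data known. All members are named. From each of 7 pathway lists the text names the genes past an unadjusted p of 0.05 in a comparison with Alt, or the 4 with the smallest p, besides Ntf5. Some genes that this rule names are not reported here. Cell type markers were summed in CPM. The lists not described with a member gave, in Ctr, Ref and Alt, 105 to 150, 161 to 170 and 167 to 200 CPM for oligodendrocyte precursors, 273 to 316, 323 to 334 and 329 to 330 for microglia, 193 to 246, 262 to 302 and 280 to 315 for endothelial and mural cells, 68.3 to 84.4, 72.8 to 118 and 65.9 to 74.8 for striatum, and 2.26 to 4.55, 2.28 to 3.10 and 3.96 to 6.11 for choroid plexus. The highest count on an overlapping antisense gene was 15 for Bdnf, 47 for Ntrk3 and 3 for Sort1. PAXIP1-AS1 itself was not analysed here.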

Additional observations from a re-analysis of the deposited data

How the results depend on the processing

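Of 441 values of the members recomputed under 16 alternatives, 387 kept their direction and side of an unadjusted p of 0.05, 14 lost the call, 22 gained it and 18 changed sign, and the causes were not tested. All sign changes concerned differences that had not passed, except those of Ntrk2 between Alt and Ctr and along the trend. Between Alt and Ctr, Ngfr was 0.12 with the length correction, 0.0696 with the block and the length correction, and -0.42 to 0.41 with 1 library left out (0.28 without Alt replicate 1), and Ntrk2 was -0.0229 with the block and the length correction. Between Alt and Ref, Ntrk2 was -0.19 with the length correction and -0.19 with the block added. Between Ref and Ctr, Ntrk3 was -0.053 with the length correction and -0.0116 with the block added. The length correction also moved the median of all genes in this comparison, from 0.0055 to -0.064. With 1 library left out, Ntrk3 ran from -0.11 (without Ref replicate 2) to 0.17, Ntf3 from -0.0922 (without Ctr replicate 2) to 0.39 and Vgf from -0.17 (without Ref replicate 1) to 0.31. Along the trend, Ngfr was -0.0524 with the block and -0.14 (without Ctr replicate 2) to 0.39 with 1 library left out, and Ntrk2 was -0.0113 with the block and the length correction.

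With the length correction, 2, 1 and 1 members passed an unadjusted p of 0.05 between Alt and Ctr, between Alt and Ref and along the trend, namely Ntf3 and Sort1 against Ctr, Ntf3 against Ref and Sort1 along the trend, where 16.4%, 13% and 14.3% of all genes passed. With the block added the counts were again 2, 1 and 1, but Sort1 did not pass against Ctr or along the trend, and Bdnf did, where 12.4%, 9.57% and 11.9% of all genes passed. Leaving out 1 library gave 4 to 5 members between Alt and Ctr, 1 (without Alt replicate 1) to 5 (without Alt replicate 2) between Alt and Ref, 0 (without Ctr replicate 2 or Ref replicate 1) to 2 (without Alt replicate 1) between Ref and Ctr, and 2 to 5 along the trend. The share of all genes that passed moved too, from 8.14% (without Alt replicate 1) to 33.2% (without Alt replicate 2) between Alt and Ctr, from 4.19% (without Ref replicate 1) to 28.9% (without Alt replicate 2) between Alt and Ref, from 1.25% to 5.52% between Ref and Ctr, and from 7.14% to 20% along the trend, and was 6.76% between Alt and Ref without Alt replicate 1.

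Over all genes, DESeq2 called 1123, 449, 6 and 610 genes at an adjusted p of 0.05 between Alt and Ctr, Alt and Ref, Ref and Ctr, and along the trend, and without a filter on low counts edgeR called 1484, 850, 40 and 1136. Between Alt and Ref the count was 0 with median-of-ratios size factors, 0 with the replicate block, 2 with robust dispersion and 0 with only the 2 groups compared, and along the trend it was 1 with robust dispersion. Leaving out 1 library gave 0 to 3451 genes between Alt and Ctr and 0 to 2708 between Alt and Ref, both highest without Alt replicate 2, where Alt is the outlying library alone and the spread comes from the other groups, 0 to 5 between Ref and Ctr, and 0 along the trend.

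The labels do not say whether replicate numbers pair the libraries. Over 6 pairs with the same number, the correlation of deviations from the group means ran from -0.0984 to 0.0702. In a group of 2 libraries these deviations are exact opposites, so the 6 values are not separate checks and do not settle the pairing. With the replicate block 5 members passed between Alt and Ctr, Bdnf being added at -0.50, 2 between Alt and Ref, 1 between Ref and Ctr and 3 along the trend, where 12.6%, 9.01%, 2.49% and 12.8% of all genes passed. The depth limits Ntf3 and Ngfr most, with at most 42 reads in any library.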
